A study of Homo sapiens with 35 samples.

Results

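The 10 genes described here, TNFAIP3, NFKBIA, NFKBIZ, NFKBIE, NFKB1, NFKB2, RELB, BIRC3, TNIP1 and IRAK2, encode NF-kB subunits, their inhibitors and a kinase upstream of them. Of these, 9 were measured by 1 probe set each, among 22384 named genes in all, and BIRC3, a ubiquitin ligase of the pathway, was not analysed here. Where a symbol had several probe sets the rule took the one with the highest mean over all 35 arrays, a choice that arose for no member. The symbols were selected on earlier results of these arrays, among them the level of IRAK2 in polysome RNA after PP242 against DMSO. That difference is therefore given as a description.

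The cells were SUM149, an established human line of triple-negative, inflammatory breast cancer, and all 12 groups came from that 1 line. The groups were DMSO, IR, PP242, PP242 + IR, RAD001 and RAD001 + IR, each measured in a polysome fraction and in total RNA on an Affymetrix transcriptome array. Polysome RNA is the messenger RNA that carries several ribosomes. PP242 is an inhibitor of the mTOR kinase itself and acts on both mTOR complexes, while RAD001, the rapamycin analog everolimus, acts on the complex that contains raptor. Each group had 3 arrays except PP242 + IR in total RNA, which had 2. Doses and times are not stated in the labels, and IR, which they do not define, was taken as ionizing radiation. The replicates are called biological, but nothing says that they came from separate cultures, so the p-values measure only the spread between these arrays, which may be technical.

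NF-kB transcription factors are dimers of the subunits encoded by NFKB1, NFKB2, RELA, RELB and REL. In resting cells inhibitor proteins of the IkB family hold the dimers in the cytoplasm. Receptor signals, among them those of tumour necrosis factor, interleukin-1 and Toll-like receptors, and damage to DNA lead to phosphorylation and destruction of these inhibitors, and the freed dimers then transcribe their targets. The targets include genes of the inhibitors and of the ubiquitin-editing proteins that end the signal, so that the pathway switches itself off. Basal-like breast cancer cells often carry a raised activity of this pathway.

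Levels are the deposited values, read as log2, on which a difference of 1 is a factor of 2. A difference is given with ± its standard error from the limma fit of all 35 arrays, and a gene was called at an adjusted p under 0.05 over 22384 genes. Levels of different genes come from different probes and are not set against each other. The epithelial markers had array medians from 12.94 to 14.14, whereas those of fibroblasts, leukocytes and endothelial cells lay between 3.95 and 4.91. Some arrays differed from the rest of their own group: replicate 3 of every inhibitor group in both fractions, and replicate 2 of PP242 + IR in total RNA, stood apart. In these 8 arrays the median of 10 replication genes was 7.98 to 9.06, against 9.26 to 11.62 in the other 27 arrays. The median of their sterol and fatty acid synthesis genes was 11.43 to 12.67, against 8.72 to 9.90. No DMSO or IR array was among the 8.

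The start regions of the genes are shown first because NF-kB acts on its own regulators through kB elements near their promoters. RefSeq promoter windows (build GRCh38.p14, 250 bases before to 50 after the gene's start) were found for 7 of the 9 measured genes, all but NFKBIE and RELB. The kB consensus was searched on both strands. It occurred in 10.8% of 27305 such windows and in 4 of the 7, with 2 matches in TNFAIP3 and 1 each in NFKBIA, NFKBIZ and NFKB1. A narrower form, with the purine and pyrimidine positions of the consensus each fixed to a single base, matched only inside those matches. It occurred in 1.63% of the windows and in these 4 genes. The windows of NFKB2, TNIP1 and IRAK2 held neither set of letters. The AP-1 element TGANTCA, searched on both strands, was present in 7.76% of the windows and in 0 of the 7. The windows of the 4 genes with a match, and that of IRAK2 for comparison, are given 5′ to 3′ with kB consensus matches in capitals.
TNFAIP3, chr6:137867009-137867308, plus strand: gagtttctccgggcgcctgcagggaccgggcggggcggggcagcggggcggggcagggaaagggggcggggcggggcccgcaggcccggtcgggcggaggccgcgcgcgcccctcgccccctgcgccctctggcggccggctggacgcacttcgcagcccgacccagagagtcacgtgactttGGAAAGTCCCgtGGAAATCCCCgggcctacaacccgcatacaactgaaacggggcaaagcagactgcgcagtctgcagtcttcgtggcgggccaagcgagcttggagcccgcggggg
NFKBIA, chr14:35404700-35404999, minus strand: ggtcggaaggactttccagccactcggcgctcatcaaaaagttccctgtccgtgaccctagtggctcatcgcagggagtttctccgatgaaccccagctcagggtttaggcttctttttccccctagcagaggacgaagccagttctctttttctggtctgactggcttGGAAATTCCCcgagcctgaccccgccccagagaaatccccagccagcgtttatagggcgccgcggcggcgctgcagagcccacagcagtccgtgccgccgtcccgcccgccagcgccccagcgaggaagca
NFKBIZ, chr3:101827740-101828039, plus strand: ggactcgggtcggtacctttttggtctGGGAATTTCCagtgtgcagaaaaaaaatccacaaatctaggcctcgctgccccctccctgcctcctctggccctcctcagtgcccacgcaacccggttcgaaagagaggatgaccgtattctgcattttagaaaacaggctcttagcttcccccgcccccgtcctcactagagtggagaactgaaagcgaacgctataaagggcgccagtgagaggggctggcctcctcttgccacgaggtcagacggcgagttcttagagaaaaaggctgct
NFKB1, chr4:102501109-102501408, plus strand: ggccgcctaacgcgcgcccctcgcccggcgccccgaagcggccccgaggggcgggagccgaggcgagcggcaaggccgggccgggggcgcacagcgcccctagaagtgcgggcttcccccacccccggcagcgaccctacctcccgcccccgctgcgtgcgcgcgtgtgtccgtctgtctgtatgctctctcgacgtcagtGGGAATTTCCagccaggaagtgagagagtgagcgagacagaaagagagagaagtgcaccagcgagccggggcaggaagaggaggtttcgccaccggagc
IRAK2, chr3:10164669-10164968, plus strand: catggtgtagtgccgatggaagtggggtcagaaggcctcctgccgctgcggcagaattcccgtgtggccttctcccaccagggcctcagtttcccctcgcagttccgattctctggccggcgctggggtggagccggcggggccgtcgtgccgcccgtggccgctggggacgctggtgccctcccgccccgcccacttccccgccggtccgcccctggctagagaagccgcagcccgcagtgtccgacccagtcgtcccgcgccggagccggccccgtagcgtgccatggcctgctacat
In these windows the match of NFKBIA starts 81 bases before the gene's start and that of NFKB1 starts 49 bases before it. The pair in TNFAIP3 starts 67 and 55 bases before the start, and the match of NFKBIZ lies farther off, at 223 bases. A match of letters is a description and shows no binding.

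IRAK2 encodes a kinase-like protein that joins MYD88 below interleukin-1 and Toll-like receptors and passes their signal towards NF-kB. In polysome RNA its levels after DMSO were 6.96, 6.60 and 6.46 on the 3 arrays. After PP242 they were 7.59, 8.0 and 7.76, and after PP242 + IR they were 7.91, 8.04 and 7.98. All 6 PP242 arrays thus lay above every DMSO array, and also above every IR array, which stood at 7.19, 6.98 and 6.65. RAD001 gave 6.91, 7.13 and 7.37. RAD001 + IR gave 7.11, 6.94 and 7.42. The RAD001 arrays overlapped the DMSO and IR arrays and ended below the lowest PP242 array.

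Against DMSO, the mean of IRAK2 in polysome RNA after PP242 was higher by 1.11 ± 0.19, and it was among the 60 genes (0.268%) called in that comparison. This is the difference known when the gene was proposed. After PP242 + IR it rose by 1.30 ± 0.19 against the same DMSO arrays (adjusted p = 0.00295), where 21 genes (0.0938%) were called. Those DMSO arrays are part of the selecting difference, so this call is not independent of the selection. PP242 + IR against IR shares no array with the comparison of PP242 with DMSO. There IRAK2 rose by 1.04 ± 0.19 (adjusted p = 0.019), where 29 genes (0.13%) were called. Its standard error came from the fit of all arrays, which includes the DMSO and PP242 arrays of the selecting difference. The symbols were selected on earlier results of these arrays, of which that difference was only a part. This call is therefore not shown to be independent of the selection either. That last call ended in 5 of the 6 fits that left out 1 array (all but the fit without IR 1), with differences from 0.89 to 1.16, and without the 8 arrays that stand apart (1.03, adjusted p = 0.0925). For PP242 against DMSO the difference was 1.00 to 1.25 with 1 array left out, and the gene was not called without DMSO 3 or PP242 2, whereas for PP242 + IR against DMSO the left-out fits gave 1.20 to 1.45 and kept it. In fits of the compared groups alone, with fewer arrays to estimate the spread, the calls of IRAK2 ended (adjusted p = 0.126 for PP242 + IR against DMSO and 0.161 against IR). In bulk RNA, more cells with a transcript and more transcript per cell cannot be told apart.

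Total RNA held a smaller IRAK2 difference that did not pass the test. Levels there were 6.72, 6.26 and 6.30 after DMSO. They were 7.11, 6.60 and 7.02 after PP242 and 7.40 and 6.89 after PP242 + IR. Replicate 2 of PP242 lay below replicate 1 of DMSO, so only the PP242 + IR arrays cleared the DMSO range. With 2 arrays in the PP242 + IR group, 2503 of all 22384 genes lay wholly above DMSO there. The differences were 0.48 ± 0.19 for PP242 (adjusted p = 0.386) and 0.72 ± 0.21 for PP242 + IR (adjusted p = 0.517). IR alone left total IRAK2 at 6.51, 6.70 and 6.07, a difference of 0.00 ± 0.19. RAD001 gave 6.45, 6.26 and 6.66, and RAD001 + IR gave 6.59, 6.43 and 6.53, both overlapping DMSO.

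Ranked by mean in polysome RNA, IRAK2 was highest after PP242 + IR (7.98 ± 0.06, SD, n = 3) and PP242 (7.78 ± 0.21). RAD001 + IR (7.16 ± 0.24), RAD001 (7.14 ± 0.23), IR (6.94 ± 0.27) and DMSO (6.67 ± 0.26) followed. Only the step from PP242 to RAD001 + IR separated neighbouring groups with no shared range. The difference between the inhibitors in polysome RNA was 0.65 ± 0.19 without IR (adjusted p = 0.788) and 0.82 ± 0.19 with IR (adjusted p = 0.428), and neither was called. In these comparisons 0.0268% and 0.00447% of all genes were called. In the plot of levels by array, IRAK2 is the panel in which the polysome points of the PP242 groups form a separate upper tier.

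**Figure D1:**
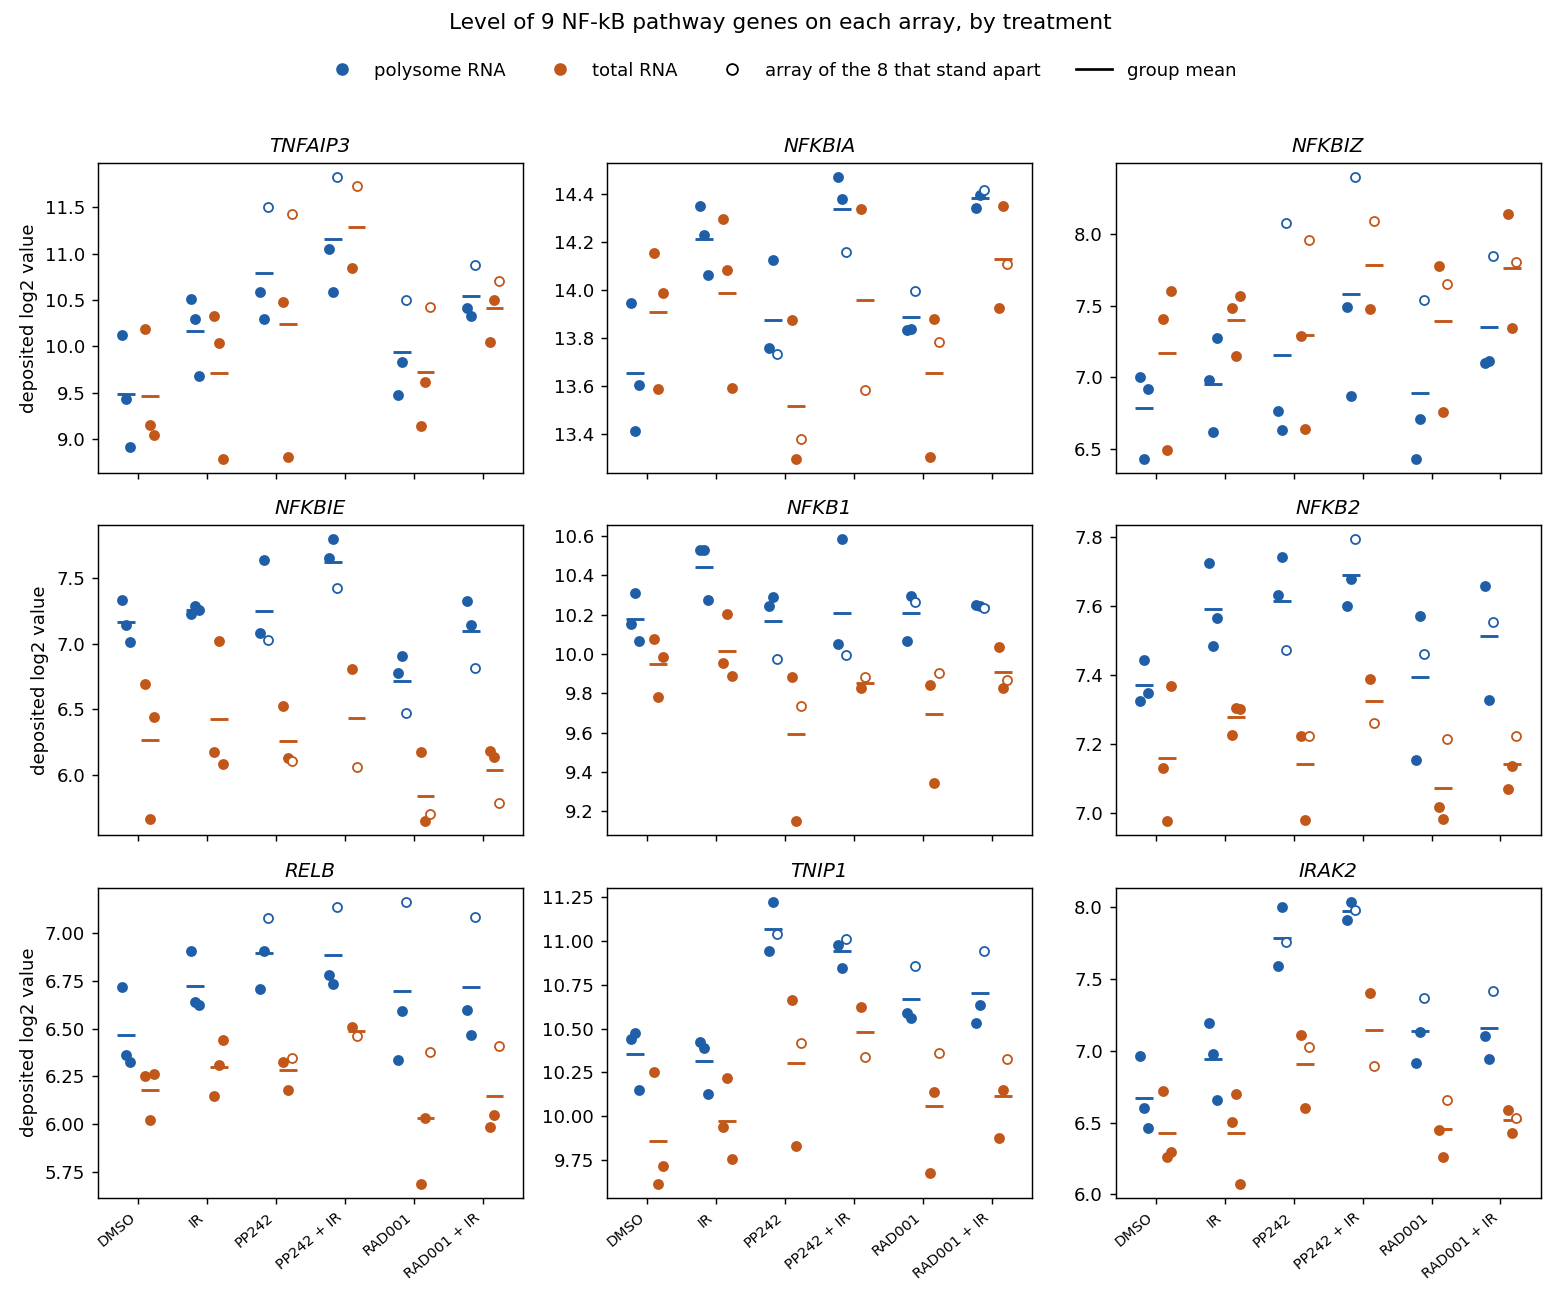
Level of each of the 9 measured genes on each array (vertical axis, deposited log2 value, scaled separately per gene) for the 6 treatments (horizontal axis), in polysome RNA (blue) and total RNA (orange). Points are single arrays, bars are group means, and open points are the 8 arrays that stand apart. The IRAK2 polysome points after PP242 and PP242 + IR lie between 7.59 and 8.04, above those of DMSO, which end at 6.96, while open points top most TNFAIP3 and NFKBIZ groups.

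TNIP1 encodes a ubiquitin-binding protein that brings TNFAIP3 to its substrates and restrains NF-kB. Its polysome levels were 10.44, 10.48 and 10.15 after DMSO. After PP242 they were 10.94, 11.22 and 11.04, and after PP242 + IR they were 10.98, 10.84 and 11.01. No array of either PP242 group reached down to the DMSO range. RAD001 gave intermediate values of 10.59, 10.56 and 10.85, also above all DMSO arrays, and IR gave 10.43, 10.39 and 10.13. The difference for PP242 was 0.71 ± 0.20 and did not pass the test on the values as deposited (adjusted p = 0.154), but it passed after quantile normalization (0.84, adjusted p = 0.0333). PP242 + IR against DMSO gave 0.59 ± 0.20 (adjusted p = 0.443) and RAD001 gave 0.31 ± 0.20. RAD001 + IR stood at 10.53, 10.64 and 10.94, again above every DMSO array. In total RNA TNIP1 ran from 9.62 to 10.25 after DMSO, from 9.83 to 10.66 after PP242 and from 10.34 to 10.63 after PP242 + IR. There the RAD001, RAD001 + IR and IR arrays all lay between 9.68 and 10.36, overlapping DMSO.

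TNFAIP3, a ubiquitin-editing enzyme that shuts off signalling to NF-kB and is itself a standard NF-kB target, had the largest mean difference of the 9 genes in 4 of the 5 polysome comparisons with DMSO (all but RAD001) and also the largest standard error. In polysome RNA it stood at 10.12, 9.43 and 8.91 after DMSO. PP242 gave 10.59, 10.30 and 11.51. PP242 + IR gave 11.05, 10.59 and 11.83. Both PP242 groups lay above all DMSO arrays, and in each the highest value was replicate 3, an array that stands apart. The differences were 1.31 ± 0.53 for PP242 (adjusted p = 0.44) and 1.67 ± 0.53 for PP242 + IR (adjusted p = 0.373), neither called.

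After IR alone TNFAIP3 was at 10.52, 10.30 and 9.68 in polysome RNA, overlapping DMSO. After RAD001 + IR it was at 10.42, 10.33 and 10.87, above all DMSO arrays, and after RAD001 at 9.48, 9.84 and 10.50. In total RNA the PP242 arrays ran from 8.80 to 11.43, which spans the whole DMSO range of 9.04 to 10.19. The difference of 0.78 for PP242 there was 0.18 without the 8 arrays that stand apart. PP242 + IR in total RNA stood at 10.85 and 11.73, giving the largest difference of any gene in the list, 1.83 ± 0.59, which was not called (adjusted p = 0.627).

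NFKBIA encodes IkB alpha, the inhibitor that NF-kB resynthesizes most quickly and that closes the feedback loop. Its polysome levels separated by IR rather than by inhibitor. They were 13.95, 13.41 and 13.60 after DMSO and 14.35, 14.23 and 14.06 after IR. PP242 alone gave 13.76, 14.13 and 13.73, and PP242 + IR gave 14.47, 14.38 and 14.16. RAD001 alone gave 13.83, 13.84 and 13.99, and RAD001 + IR gave 14.34, 14.39 and 14.42. In each of the 3 backgrounds every array with IR lay above every array without it, as did 4.64%, 3.07% and 4.02% of all genes for DMSO, PP242 and RAD001. The IR differences were 0.56 ± 0.21 without an inhibitor, 0.46 ± 0.21 with PP242 and 0.50 ± 0.21 with RAD001, and none was called. In total RNA the IR difference was 0.08 ± 0.21 without an inhibitor, 0.44 ± 0.23 with PP242 and 0.47 ± 0.21 with RAD001. Total NFKBIA ranged from 13.59 to 14.15 after DMSO, from 13.59 to 14.29 after IR and from 13.30 to 13.87 after PP242. The RAD001 arrays ran from 13.30 to 13.88 and the RAD001 + IR arrays from 13.92 to 14.35, with no overlap between them. In that comparison 331 of all 22384 genes lay wholly higher with IR.

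NFKBIE encodes IkB epsilon, a slower inhibitor of dimers that contain RELA or REL. It was the 1 member called between the fractions of DMSO-treated cells, at 7.33, 7.14 and 7.01 in polysome RNA and 6.69, 5.67 and 6.44 in total RNA. Every polysome array lay above every total array, as for RELB and for 3476 of all 22384 genes, while 4182 genes lay wholly below. The second total array of NFKBIE was lowest, and the difference was 0.89 ± 0.25 (adjusted p = 0.0403). The call ended after quantile normalization (0.78, adjusted p = 0.0736), and in 4 of the 6 fits that left out 1 array, with 0.59 to 1.10. The left-out arrays that ended it were DMSO polysome 1, 2 or 3 and DMSO total 2. In a fit of the compared groups alone the adjusted p was 0.0926. In that comparison 932 genes (4.16%) were called, 616 of them higher, against 390 of 805 after quantile normalization. NFKBIE was also the 1 member whose RAD001 arrays all lay below DMSO in polysome RNA, at 6.77, 6.91 and 6.47, a difference of -0.44 ± 0.25 that was not called. Across all genes 6.05% lay below without overlap in that comparison. PP242 + IR gave the highest NFKBIE group, at 7.65, 7.79 and 7.42, while RAD001 + IR at 7.32, 7.14 and 6.82 overlapped DMSO. In total RNA all NFKBIE arrays lay between 5.65 and 7.02, and the RAD001 mean was the lowest there too, at 5.84 ± 0.29 (SD, n = 3).

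NFKBIZ encodes IkB zeta, a nuclear member of the inhibitor family that switches on a later group of targets such as LCN2. Its polysome levels were 7.0, 6.43 and 6.92 after DMSO. They were 6.77, 6.63 and 8.08 after PP242, and 7.49, 6.87 and 8.40 after PP242 + IR. Only the array that stands apart cleared the DMSO range after PP242, and the differences of 0.37 ± 0.42 and 0.80 ± 0.42 were not called. Without the 8 arrays that stand apart the NFKBIZ difference was -0.09 after PP242, with the sign turned, and 0.39 after PP242 + IR. RAD001 + IR gave 7.10, 7.11 and 7.85, above all DMSO arrays. Total NFKBIZ ran from 6.50 to 7.60 after DMSO, a range that the arrays of every other total group overlapped.

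Of the subunits, NFKB1 encodes the precursor of the partner that RELA most often takes. Its polysome levels were close together, from 9.98 to 10.58 over all 18 arrays. The IR arrays stood at 10.53, 10.53 and 10.27 against 10.15, 10.31 and 10.07 after DMSO, which overlap, and the difference was 0.27 ± 0.17. NFKB2 encodes the precursor that is processed in the non-canonical pathway to form the partner of RELB. NFKB2 stood at 7.32, 7.44 and 7.35 in DMSO polysome RNA and at 7.63, 7.74 and 7.47 after PP242. After PP242 + IR it stood at 7.60, 7.68 and 7.79, and after IR at 7.72, 7.48 and 7.56. All 9 of these treated NFKB2 arrays lay above the DMSO arrays, although the differences were small, at 0.24, 0.32 and 0.22 with a standard error of 0.11, and none was called. RELB, at 6.72, 6.36 and 6.32 after DMSO, reached 6.78, 6.73 and 7.13 after PP242 + IR, a difference of 0.41 ± 0.19 that was not called, and overlapped DMSO by 1 array after PP242. In total RNA the subunits ran from 9.15 to 10.20 for NFKB1, from 6.98 to 7.39 for NFKB2 and from 5.69 to 6.51 for RELB over all 17 arrays. The PP242 + IR arrays of RELB there, 6.51 and 6.46, were above those of DMSO, 6.25, 6.02 and 6.26, as was so for 2503 of all 22384 genes.

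Taking the 9 genes together, their differences from DMSO in polysome RNA were mostly above 0. Their median was 0.37 after PP242 (8 of 9 above 0) and 0.59 after PP242 + IR (9 of 9), while the medians of all genes were 0.01 and 0.02. After IR, RAD001 and RAD001 + IR the medians of the 9 were 0.25, 0.23 and 0.35, each with 8 of 9 above 0. These 3 comparisons called 0 of the 9 genes and 0 genes in all with limma (0%), and at an unadjusted p under 0.05 they held 1, 1 and 2 of the 9 against 0.809%, 2.18% and 2.36% of all genes. The treated arrays lay wholly above DMSO for 7 of the 9 after PP242 + IR, against 8.01% of all genes. That count was 4 after PP242 (8.69%), 4 after RAD001 + IR (6.32%), 2 after IR (4.64%) and 1 after RAD001 (5.89%). All 5 comparisons use the same 3 DMSO arrays, and the list was not chosen independently of these arrays, so the counts describe the genes and test nothing.

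**Figure D2:**
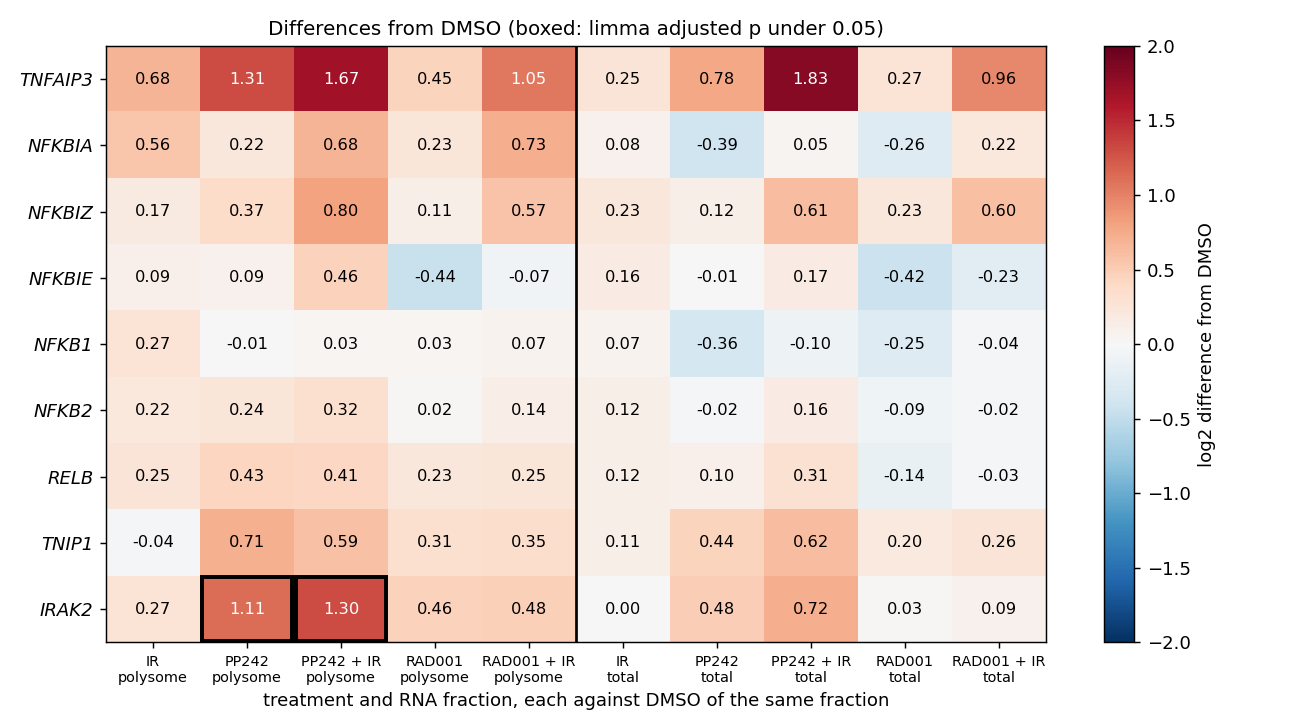
Mean log2 difference from DMSO of the same fraction (cell text and colour) for each of the 9 genes (rows) after each treatment in polysome and total RNA (columns). Boxed cells had a limma adjusted p under 0.05 over all genes. Only the IRAK2 cells of PP242 (1.11) and PP242 + IR (1.30) in polysome RNA are boxed. The former is the difference on which the gene was selected, and the latter shares its DMSO arrays. TNFAIP3 holds the highest values without a box.

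In total RNA limma called 0 of the 9 genes in any of the 5 comparisons with DMSO, where it called 0 to 28 of all genes (0% after IR and RAD001, 0.125% after PP242, 0.0268% after PP242 + IR, 0.00893% after RAD001 + IR). At an unadjusted p under 0.05 the counts were 3 of 9 after PP242 (9.42% of all genes) and 3 of 9 after PP242 + IR (5.25%). They were 0 after IR (0.764%), RAD001 (7.63%) and RAD001 + IR (6.23%). PP242 lowered no member past the test: NFKB1 stood at 9.89, 9.15 and 9.74 in total RNA against 10.08, 9.78 and 9.99, a difference of -0.36 ± 0.17 (adjusted p = 0.504). The median over the 9 was 0.11 after PP242 and 0.31 after PP242 + IR, below those in polysome RNA.

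Translational efficiency, the difference in polysome RNA minus that in total RNA, was tested as an interaction. The fit took the arrays of the 2 fractions as independent, so the standard errors leave out any pairing between them. None of the 9 was called after any treatment, nor was any gene (0%). After PP242 all 9 values lay above 0, from 0.10 to 0.63, with a median of 0.32 against -0.01 over all genes. At an unadjusted p under 0.05 limma held 2 of the 9 after PP242, NFKBIA with 0.61 ± 0.29 and IRAK2 with 0.63 ± 0.27, against 1.52% of all genes. The IRAK2 value contains the difference on which the gene was selected, so it is a description and its place in that count tests nothing. None of the 9 did so after IR (0.88%), RAD001 (1.9%), PP242 + IR (2.21%) or RAD001 + IR (3.06%). For NFKBIA the 2 parts of the PP242 value had opposite signs, 0.22 in polysome RNA and -0.39 in total RNA.

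Effects averaged over backgrounds were added after the single comparisons had been seen, and they reuse the same arrays. Averaged over without and with IR, PP242 raised TNIP1 by 0.67 ± 0.14 in polysome RNA (adjusted p = 0.00849), among 453 genes called (2.02%). TNIP1 is on a list selected on earlier results of these arrays, so its call is not independent of the selection. For IRAK2 the same average was 1.07 ± 0.13 and is given as a description, since it contains the difference on which the gene was selected. Without the 8 arrays the averages were 0.66 for TNIP1 (adjusted p = 0.0378) and 1.08 for IRAK2. The average in total RNA was 0.60 ± 0.14 for IRAK2 (adjusted p = 0.0378), among 229 genes called (1.02%). Same-numbered polysome and total arrays deviated together after PP242, so this call is not independent of the selection on polysome RNA either. The total RNA call ended without the 8 arrays (0.70, adjusted p = 0.102) or without any of 5 single arrays, with 0.47 to 0.73 over the left-out fits. Those arrays were DMSO 3, IR 3, PP242 3, and PP242 + IR 1 or 2. PP242 exceeded RAD001 by 0.73 ± 0.13 for IRAK2 in polysome RNA, among 61 genes called (0.273%). This too is a description, since it includes the PP242 arrays of the selecting difference. The call of IRAK2 ended without RAD001 1 or RAD001 + IR 2, with 0.68 to 0.80.

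IR averaged over its 3 backgrounds gave NFKBIA the smallest p of the 9 in polysome RNA, 0.51 ± 0.12, but limma called 0 genes in that comparison (0%). At an unadjusted p under 0.05 it held 2 of the 9, NFKBIA and NFKB2, against 0.902% of all genes. RAD001 averaged over without and with IR called 0 of the 9 in either fraction (0.00893% of all genes in polysome RNA, 0.835% in total RNA). NFKBIE stayed negative in both, at -0.30 ± 0.18 and -0.41 ± 0.18. The interaction of IR with either inhibitor was called for 0 of the 9 and for 0 of all genes (0%) in either fraction, and 0 of the 9 passed an unadjusted p under 0.05. Of all genes, 1.01% passed it for PP242 and 0.652% for RAD001 in polysome RNA, and 1.31% and 0.916% in total RNA.

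**Figure D3:**
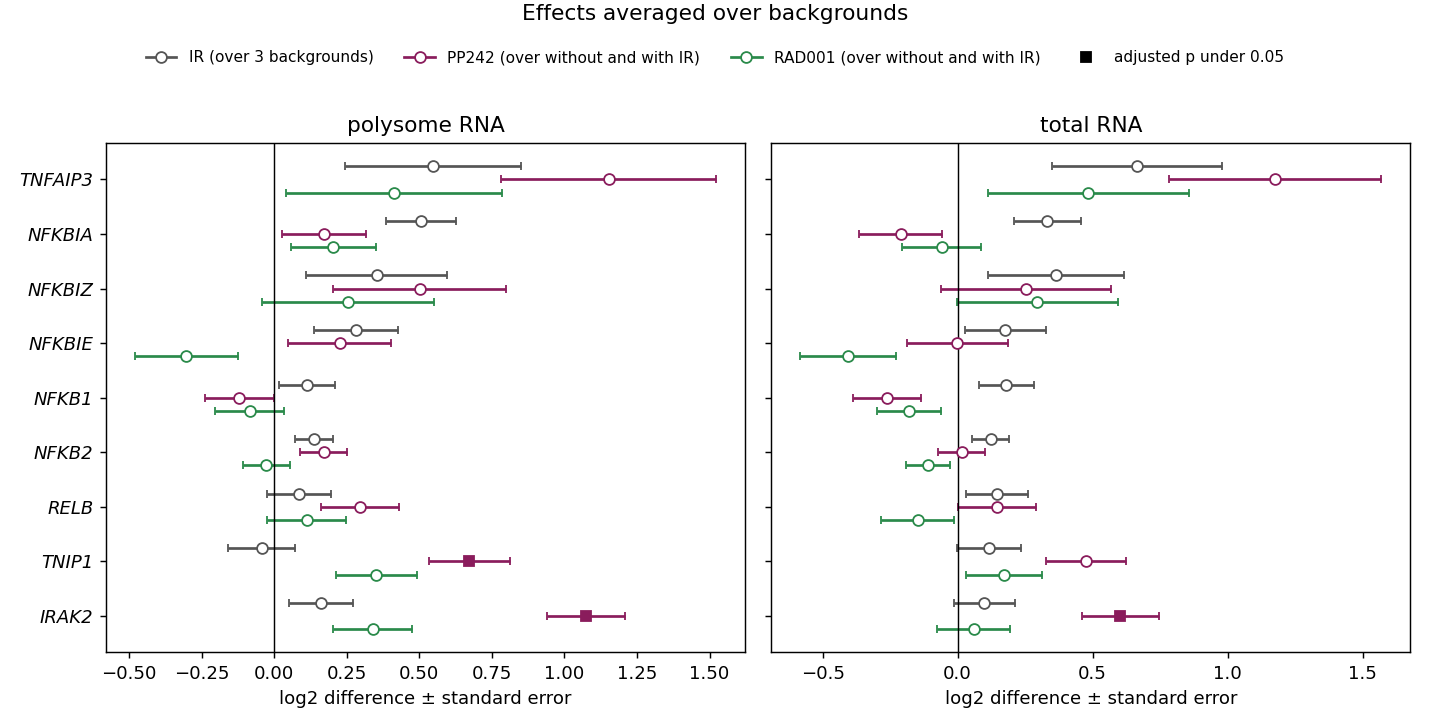
Effects averaged over backgrounds (horizontal axis, log2 difference, bars are standard errors) for the 9 genes (vertical axis) in polysome RNA (left) and total RNA (right). Grey is IR, purple PP242 and green RAD001, and filled squares had a limma adjusted p under 0.05 over all genes. Filled squares appear for PP242 alone, for IRAK2 in both fractions (1.07, which contains the difference the gene was selected on, and 0.60) and for TNIP1 in polysome RNA (0.67). The list was selected on earlier results of these arrays, so no filled square is an independent test.

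The 8 arrays that stand apart moved members in different directions. Against the rest of its own group, each of the 8 was higher for TNFAIP3, by 0.43 to 1.79, and for NFKBIZ, by 0.07 to 1.38. RELB was higher in 7 of 8, with a median of 0.39. NFKBIE was lower in all 8, with differences from -0.74 to -0.20. IRAK2 ran from -0.51 to 0.40 and TNIP1 from -0.29 to 0.45, each above 0 in 6 of 8. These same arrays were lower for MCM5, a subunit of the replicative helicase, with differences from -2.97 to -2.25, and higher for FASN, which makes fatty acids, by 2.53 to 4.18. Both genes belong to the replication and synthesis lists that describe these arrays above, so this is no separate observation. Without the 8 arrays the polysome differences of IRAK2 from DMSO were as large as with them, 1.12 after PP242 and 1.30 after PP242 + IR. The average effect of PP242 on TNFAIP3 in total RNA was 1.18 with them and 0.66 without, and that on NFKBIZ in polysome RNA was 0.50 with them and 0.07 without. The part of whatever sets these arrays apart in the TNFAIP3 and NFKBIZ values was not tested.

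**Figure D4:**
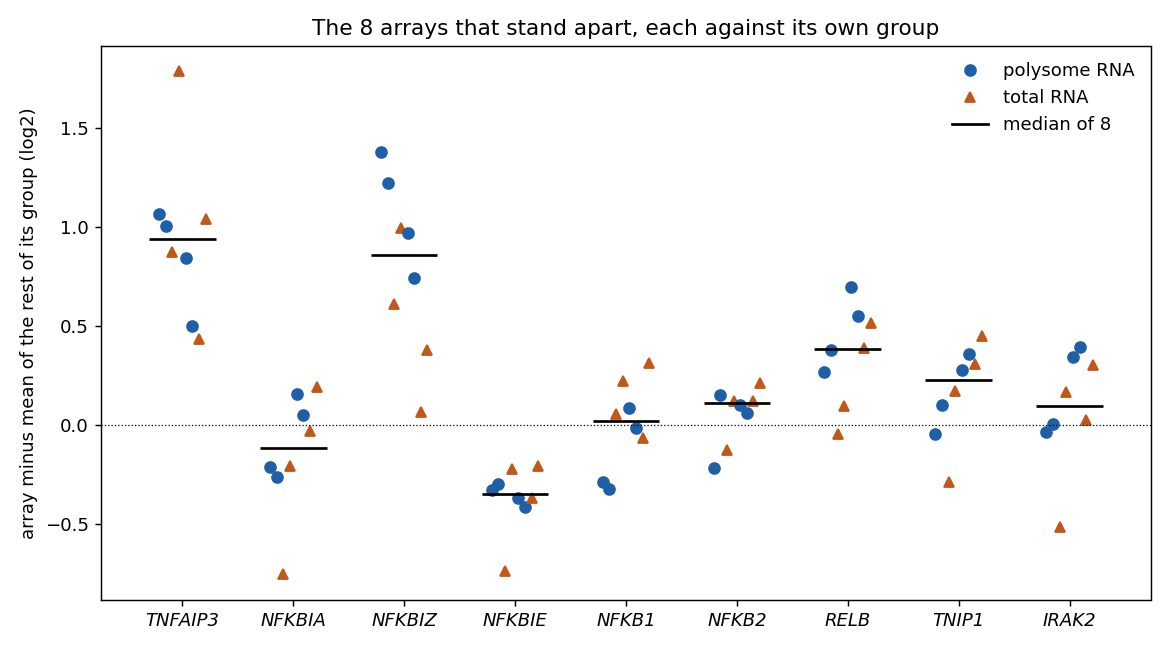
Each of the 8 arrays that stand apart, as its value minus the mean of the remaining arrays of its group (vertical axis, log2), for the 9 genes (horizontal axis). Circles are polysome arrays, triangles total RNA arrays, and black bars medians of the 8. All TNFAIP3 and NFKBIZ points lie above 0 and all NFKBIE points lie below it, while IRAK2 has a median of 0.10.

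Across the 12 group means, centred within each fraction, the 9 genes varied together in part. The median Pearson correlation over 36 pairs was 0.57, and 33 pairs were above 0. IRAK2 and TNIP1 had the highest value of any pair at 0.93 (0.95 without the 8 arrays), and NFKB1 and TNIP1 the lowest at -0.49. These are descriptions over 12 points that come from the same arrays. Among 17056 other protein-coding genes, those most like IRAK2 over the same points were LIF, a cytokine of the interleukin-6 family (r = 0.98), KDM4B, SQSTM1, MFSD2A and PTGER4. Without the 8 arrays LIF ranked 4, SQSTM1 32, KDM4B 261, MFSD2A 542 and PTGER4 789. The genes most like TNFAIP3 were MXD1 (r = 0.96), PELI1, UGCG, ZNF550 and PTGS2. Without the 8 arrays these ranked 17, 21, 45, 19 and 178, so the order rests in part on those arrays. PELI1 is itself a ubiquitin ligase of the interleukin-1 receptor pathway.

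The wider pathway was taken as 100 further genes in 7 lists, of which 90 were measured: subunits, inhibitors, kinases, adaptors and ubiquitin ligases, receptors, ligands and targets. Limma called 0 of the 90 in every comparison with DMSO. At an unadjusted p under 0.05 it held 13 of the 90 in polysome RNA after PP242 and 13 after PP242 + IR, against 8.44% and 5.7% of all genes. The 90 genes as a whole had no shared direction in these 2 comparisons, with 42 and 44 of the 90 above 0 and medians of -0.01 and -0.0018. In the other polysome comparisons it held 0 after IR (0.809% of all genes), 1 after RAD001 (2.18%) and 1 after RAD001 + IR (2.36%). In total RNA it held 8 after PP242 (9.42%), 8 after PP242 + IR (5.25%), 9 after RAD001 (7.63%), 6 after RAD001 + IR (6.23%) and 0 after IR (0.764%). Between polysome and total RNA of the DMSO groups 6 of the 90 were called higher and 1 lower, against 4.16% of all genes in either direction. After quantile normalization those counts were 2 and 2. RELA, the main activating subunit, was higher in polysome RNA by 1.04 ± 0.27 (adjusted p = 0.026), and MYD88, the adaptor that recruits IRAK2, by 0.95 ± 0.25 (adjusted p = 0.0328). The lymphotoxin receptor LTBR, the receptor SIGIRR that dampens interleukin-1 signals, and SHARPIN of the linear ubiquitin ligase were higher by 0.88, 0.42 and 0.67. RNF11, a partner of TNFAIP3, was lower in polysome RNA, at -0.85 ± 0.23 (adjusted p = 0.0356).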

How the data were processed

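The deposited table holds log2 values of 65029 probe sets on 35 arrays, a scale inferred from the values (1.85 to 19.92, array medians 4.19 to 4.84). The sources used here do not state the background correction or the normalization. The labels' growth and extraction protocols describe mouse tissue rather than this cell line and were set aside. The number of arrays limits the precision.

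Names came from the platform annotation: 23077 had 1 symbol, 1357 several and 40595 none. Keeping the highest mean per symbol left 22384 genes, 17065 of them protein-coding. All 35 arrays entered 1 limma 3.58.1 fit in R 4.3.3 (lmFit and eBayes, 12 group means, 23 residual and 2.69 prior degrees of freedom), with Benjamini-Hochberg adjustment over all genes and 32 comparisons, plus 8 averages added after their parts had been seen. The fit was run on simulated data with known changes and independent noise, without arrays that stand apart. That run checks the code and not the calls made here. All members were named, and of the wider pathway up to 6 genes per comparison, by smallest adjusted p. The members and lists were chosen with earlier results of these data known. The averages, quantile normalization, a low-level filter, left-out arrays, a fit of the compared groups only and the study's thresholds are compared in the closing section.

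Same-numbered arrays deviated together, with every correlation over 0.1, in several comparisons within and between the inhibitors (PP242 + IR against PP242 in polysome RNA: 0.61, 0.57 and 0.83) and in IR against DMSO in polysome RNA (0.13, 0.34 and 0.21). They also did so in PP242 + IR against DMSO in total RNA (0.39 and 0.514). In the other comparisons of polysome RNA with DMSO they did not. Same-numbered polysome and total arrays also deviated together after PP242 (0.32, 0.23 and 0.60), RAD001 (0.26, 0.21 and 0.64) and RAD001 + IR (0.36, 0.415 and 0.69). They did not throughout after DMSO (0.11, -0.08 and 0.37), IR (0.02, -0.04 and 0.02) or PP242 + IR (0.51 and -0.345). The main fit took no account of this. The labels give no source for a pairing.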

Additional observations from a re-analysis of the deposited data

How the results depend on the processing

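Of 4905 values of single genes under an alternative, 4825 kept their direction and side of the threshold or moved by less than the replicate spread. Of the rest, 49 moved, 26 lost a call and 5 gained one, and no called value changed sign. Most of the 4905 were not called in the main fit, and for those a change of sign within the replicate spread counted as kept. The 26 lost calls fall on the few results called in the main fit, so the 4825 does not measure how firm the calls are. Counts of members called moved as follows. With only the compared groups in the fit, 0 members were called in PP242 against DMSO, PP242 + IR against DMSO and PP242 + IR against IR in polysome RNA, in polysome against total RNA of DMSO, and in the averaged PP242 effect in total RNA, which has fewer arrays to estimate the spread. With a log2 change over 1.5 required, at an adjusted or an unadjusted p under 0.05, the count was 0 in every comparison that had a call, with 1 exception. That was PP242 + IR against DMSO in polysome RNA at the unadjusted p, where the member was TNFAIP3 (1.67) and IRAK2 (1.30) lost its call. In PP242 + IR against DMSO or IR in total RNA the count was 1 (TNFAIP3) at the unadjusted p. After quantile normalization it was 2 in PP242 against DMSO in polysome RNA and in the averaged PP242 effect in total RNA, 1 in the averaged difference of PP242 from RAD001 in total RNA, and 0 in polysome against total RNA of DMSO. The cause was not tested. Without the 8 arrays that stand apart it was 0 in PP242 + IR against IR in polysome RNA and in the averaged PP242 effect in total RNA. Leaving out 1 array gave 0 to 1 members in PP242 against DMSO, PP242 + IR against IR, polysome against total RNA of DMSO and the averaged difference of PP242 from RAD001 in polysome RNA, and 0 to 3 in the averaged PP242 effect in total RNA, the 3 without PP242 2. With the replicate block no call of a member changed: IRAK2 had 1.30 after PP242 + IR against DMSO in polysome RNA (adjusted p = 0.00122) and 1.04 against IR (adjusted p = 0.014). The block goes by replicate number, which is 2 for the array that stands apart in PP242 + IR total RNA and 3 for the others. It therefore does not separate the 8 arrays from the rest. The filter on low levels changed no call of a member and gave 75 genes in PP242 against DMSO in polysome RNA, 1062 in polysome against total RNA of DMSO and, for the averaged PP242 effect in total RNA, 386 against 229. No member had a second probe set, so another choice of probe set could not be run. Over all genes, PP242 against DMSO in polysome RNA called 60 genes, 104 after quantile normalization, 174 with the replicate block and 0 in the compared groups alone. For PP242 + IR against DMSO these were 21, 46, 59 and 0, and against IR 29, 48, 61 and 0, with 11 without the 8 arrays. For the averaged PP242 effect they were 453, 524, 958 and 888 in polysome RNA and 229, 526, 1253 and 0 in total RNA (48 without the 8 arrays), and for PP242 against RAD001 averaged in polysome RNA 61, 117, 136 and 64. Polysome against total RNA of DMSO called 932, with 616 higher, against 805, with 390 higher, after quantile normalization and 1594 with the replicate block. For PP242 against DMSO, higher calls were 12 of the 60 as deposited and 62 of the 104 after quantile normalization.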
